A study of Mus musculus with 2 samples.

Results

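The genes C2cd4a, Sh2d4a, Klf9, Slc26a1, Sphk1, Atp7b, Atp1b2 and Hesx1 were followed through the fetal liver cells of IκBα wild-type (WT) and knockout (KO) embryos. They are 8 of the 32285 genes counted, and all 8 were detected in both libraries. They were selected on their levels in these same cells, because they lead a large Kit-positive cluster that had carried no cell type name. When the cells were clustered again, the cluster with most late erythroid progenitors held 1193 cells, 15.2% of the WT and 15.1% of the KO cells, and C2cd4a ranked 1 and Sh2d4a 2 among 11522 genes by level in the cluster against all other cells. Klf9 ranked 4, Slc26a1 5, Atp7b 6, Sphk1 8, Atp1b2 9 and Hesx1 11, with log2 ratios from 2.69 for C2cd4a to 1.84 for Hesx1. Gjb2, Scd1 and Acsl6 took ranks 3, 7 and 10, and Pvt1 followed at rank 12 with a log2 ratio of 1.77. The genes had been chosen for leading such a cluster in these same cells. The ranks and the pattern of the genes over cell classes are therefore a description and carry no test.

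The fetal liver is the main site of red cell formation before birth. There, KIT-positive progenitors that have switched on the erythroid factors GATA1 and KLF1 divide under erythropoietin and stem cell factor, lose Gata2, Cd34 and Kit, and then fill with haemoglobin as erythroblasts. IκBα, encoded by Nfkbia, is one of the inhibitors that hold NF-κB dimers in the cytoplasm.

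The genes of the set have diverse roles outside blood. C2cd4a encodes a small protein with a C2 domain that is studied mainly in pancreatic islets and inflamed endothelium, and Sh2d4a an adapter with an SH2 domain. Klf9 is a zinc finger transcription factor induced by glucocorticoid and thyroid hormone, and Hesx1 a homeobox repressor of forebrain and pituitary development. Slc26a1 is a sulfate transporter of liver and kidney, Atp7b the copper-exporting ATPase mutated in Wilson disease, and Atp1b2 a β subunit of the sodium pump. Sphk1 makes sphingosine-1-phosphate, a lipid for which red cells are a main source in blood.

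Both libraries came from livers of E14.5 embryos of the outbred strain CD1. The livers were depleted of lineage-positive cells and sorted for LSK cells (lineage-negative, SCA1-positive, cKIT-positive), with 2 WT embryos pooled for one library and 3 IκBα KO embryos, which carry a targeted Nfkbia allele from the germline, pooled for the other. The sample titles name LT-HSCs while the cell type entries name LSK cells. With 1 library per genotype there was no replicate, so each difference below compares these libraries and no test was made. All intervals are 95% intervals that cover counting error only, and they are exact except for that of a difference of shares. The WT library held 109122324 UMIs (unique molecular identifiers, which count each RNA molecule once) and the KO library 100029143. After filtering, 3458 WT and 4417 KO cells remained, with medians of 28065 and 19560 UMIs per cell, and the libraries shared 7 barcodes. Nfkbia, the targeted gene, had 1478 UMIs in the WT and 7 in the KO cells.

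Cells were placed in 13 classes by markers that exclude the 8 genes. Late erythroid progenitors were cells with an erythroid signature and a stage score between -1 and 3.5, where the score is the log2 ratio of erythroblast to early markers. They numbered 787 in the WT (22.8% of the cells) and 1088 in the KO library (24.6%). The cells expressed Klf1 at 343 and 320 CPM (UMIs scaled to 1000000 UMIs of the class), Gata1 at 115 and 109 CPM and Kit at 45.9 and 44.9 CPM, in WT and KO respectively. Gata2 was at 4.71 and 7.03 CPM and Cd34 at 15.1 and 25.3 CPM. Ly6a, which encodes the SCA1 antigen of the sort, was at 1.58 and 1.41 CPM here against 24.8 and 25.4 CPM in the stem class, so the transcript of a sorting antigen was nearly missing. Haemoglobin transcripts made up 0.875% and 1.31% of UMIs. The class is thus described as late erythroid progenitors from its markers, and 88.1% of the cluster that the genes lead fell in it.

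The class has soft edges. Of 4495 erythroid cells, 174 lay within 0.25 of the lower and 166 within 0.25 of the upper stage limit. Scrublet called 11.2% of the WT and 14.1% of the KO cells of the class doublets, more than the 3.90% and 5.80% over all cells. Summed markers of other lineages were low in the class: the 6 macrophage genes came to 11.6 and 9.74 CPM, the 6 neutrophil genes to 73.7 and 113 CPM, the 6 stem genes to 113 and 133 CPM and the 5 hepatocyte genes to 46.2 and 75.7 CPM. Each list was far higher in its own class, from 1165 CPM for the stem genes in KO stem cells to 65891 CPM for the hepatocyte genes in KO hepatocytes. The part of these transcripts in the values below was not tested.

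The 8 genes lie on 6 chromosomes and none neighbours another. In mouse build GRCm38 (GENCODE vM21) C2cd4a occupies chr9:67830489-67832330 on the minus strand with 2 exons, Sh2d4a chr8:68276567-68347699 on the plus strand, Klf9 chr19:23141226-23168134 on the plus strand and Slc26a1 chr5:108669878-108675569 on the minus strand. Sphk1 lies at chr11:116530925-116536674 on the plus strand, Atp7b at chr8:21992785-22060305 and Atp1b2 at chr11:69599736-69605942, both on the minus strand, and Hesx1 at chr14:26994416-27002329 on the plus strand. Because the genes are high in the same cells, the 250 bases before their RefSeq start sites (build GRCm38.p6) are shown for the leading gene, for the earliest and the latest gene along the erythroid branch, and for both genes with a GATAA motif. Sequences run 5′ to 3′ on the strand of the gene, and capitals mark the motif GATAA, the motif CACCC or the motif CACGTG, on either strand. Like those of Hesx1, the printed bases of Sphk1 lie inside the annotated gene. So do most of the printed bases of Slc26a1, whose annotated gene ends at position 108675569.
C2cd4a, chr9:67832331-67832580: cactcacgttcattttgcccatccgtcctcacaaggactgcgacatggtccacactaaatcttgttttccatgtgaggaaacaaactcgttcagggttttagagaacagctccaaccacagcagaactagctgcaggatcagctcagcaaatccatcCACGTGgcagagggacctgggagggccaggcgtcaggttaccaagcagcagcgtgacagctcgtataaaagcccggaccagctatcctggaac
Klf9, chr19:23140976-23141225: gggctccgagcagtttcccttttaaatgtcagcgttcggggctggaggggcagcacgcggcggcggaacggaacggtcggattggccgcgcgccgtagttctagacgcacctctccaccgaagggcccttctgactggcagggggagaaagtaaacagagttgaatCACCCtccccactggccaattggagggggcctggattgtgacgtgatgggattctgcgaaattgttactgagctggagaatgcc
Hesx1, chr14:27000112-27000361, inside the annotated gene: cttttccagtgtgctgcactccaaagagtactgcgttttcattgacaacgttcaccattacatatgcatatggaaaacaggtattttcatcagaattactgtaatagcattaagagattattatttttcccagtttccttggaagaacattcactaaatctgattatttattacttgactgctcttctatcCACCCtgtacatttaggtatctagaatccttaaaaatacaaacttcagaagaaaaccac
Slc26a1, chr5:108675366-108675615: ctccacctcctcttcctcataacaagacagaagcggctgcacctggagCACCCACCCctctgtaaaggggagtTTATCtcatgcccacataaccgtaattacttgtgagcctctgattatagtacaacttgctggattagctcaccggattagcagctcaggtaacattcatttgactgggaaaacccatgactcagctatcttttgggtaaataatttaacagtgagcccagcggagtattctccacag
Sphk1, chr11:116532194-116532443, the fourth of its 5 listed start sites: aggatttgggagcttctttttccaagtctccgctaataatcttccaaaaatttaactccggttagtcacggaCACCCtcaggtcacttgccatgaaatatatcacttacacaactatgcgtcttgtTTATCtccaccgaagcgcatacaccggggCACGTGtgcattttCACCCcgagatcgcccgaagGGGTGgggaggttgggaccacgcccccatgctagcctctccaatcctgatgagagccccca

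GATAA is the core of the site read by GATA factors, CACCC is read by KLF factors, and CACGTG is an E-box. RefSeq windows of 300 bases (250 before and 50 after a start site) were listed for 6 of the genes, 11 windows in all. GATAA on either strand stood in 3 windows of 2 genes, in a reference where 25.4% of all 32851 such windows hold it. CACCC stood in 9 windows of 5 genes, against 57.5% of all windows, and CACGTG in 4 windows of 3 genes, against 7.15%. Of the 5 Sphk1 windows, the second overlaps the third and the fourth overlaps the fifth, so the windows are not independent, and a match of letters is not a binding site.

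In the WT library all 8 genes were highest in the late erythroid progenitors among the 13 classes, and in the KO library 7 of 8 were. C2cd4a stood at 20.3 CPM in WT (733 UMIs, interval 18.9 to 21.8) and 20.9 CPM in KO late erythroid progenitors (726 UMIs, 19.4 to 22.5). It was at 0.0882 and 0.121 CPM in the stem class, where each library held 1 UMI, and at 0.786 and 0.980 CPM in early erythroid cells. The step from early erythroid cells to late erythroid progenitors was therefore steep, and C2cd4a then fell back to 7.0 and 6.84 CPM in erythroblasts. Of all C2cd4a UMIs, 81.4% in WT and 78.8% in KO came from late erythroid progenitors, which held 33.3% and 35.0% of all UMIs.

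**Figure D1:**
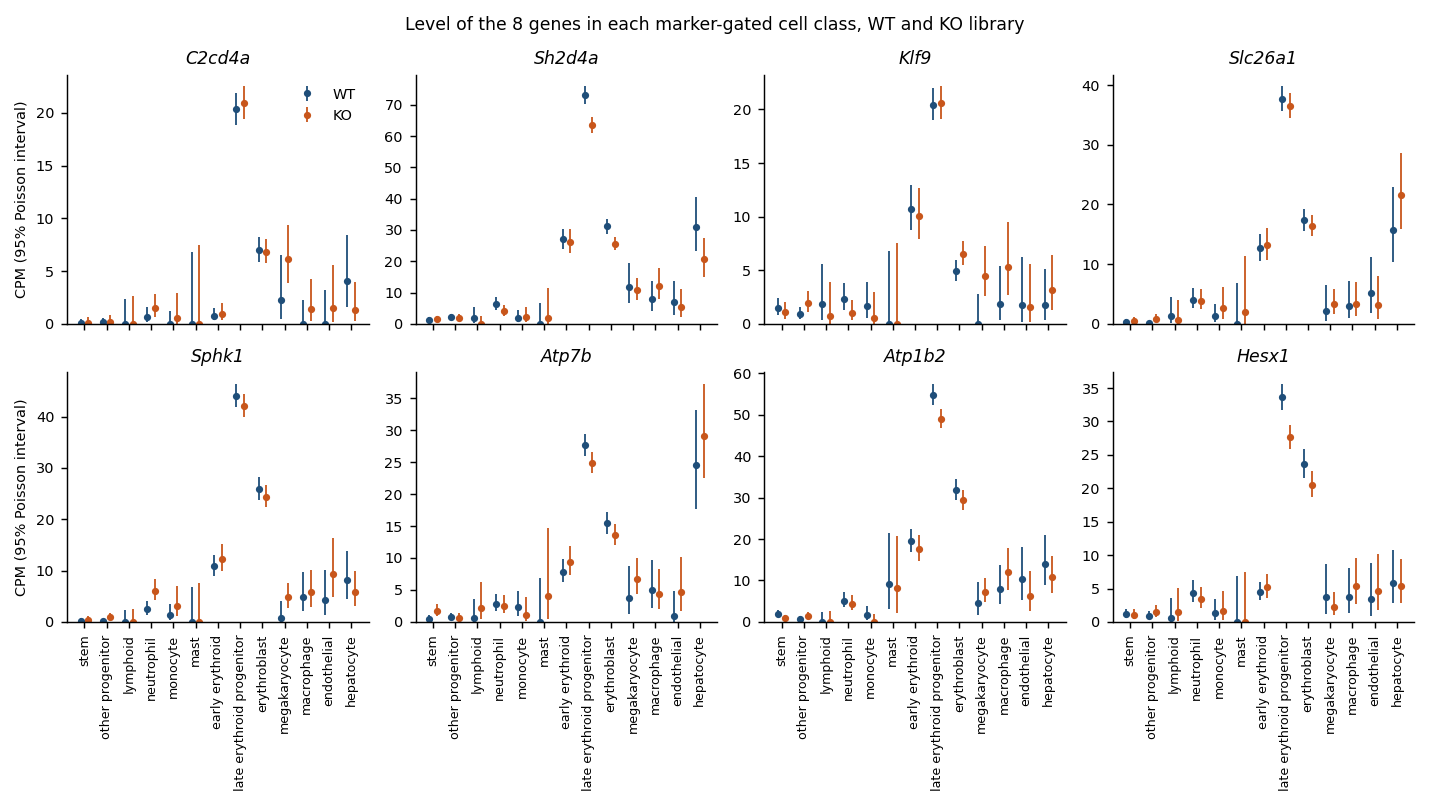
Level of each gene in CPM (linear axis, one panel per gene) in 13 marker-gated cell classes, for the WT and the KO library, with 95% Poisson intervals. Each gene is highest in late erythroid progenitors except Atp7b, which reaches 29.2 CPM in KO hepatocytes, and in both libraries each gene is lower in the stem class than in any of the 3 erythroid stages.

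Late erythroid progenitors held Sh2d4a at 73.0 CPM in the WT library and at 63.5 CPM in the KO library. It was already present in early erythroid cells, at 27.0 and 26.2 CPM, and remained at 31.1 and 25.6 CPM in erythroblasts. Klf9 reached 20.4 and 20.6 CPM in late erythroid progenitors. Its early erythroid level, 10.7 and 10.1 CPM, lay above its erythroblast level of 4.95 and 6.56 CPM, an order shared with no other gene of the set in both libraries.

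Of the transporters, Atp1b2 was at 54.9 and 49.0 CPM in WT and KO late erythroid progenitors, at 19.6 and 17.6 CPM in early erythroid cells and at 31.9 and 29.4 CPM in erythroblasts. Slc26a1 was at 37.7 and 36.5 CPM in late erythroid progenitors and at 0.265 and 0.484 CPM in the stem class. The hepatocyte class also held Slc26a1, at 15.8 and 21.5 CPM. Atp7b was at 27.6 and 24.8 CPM in late erythroid progenitors and at 24.6 CPM (interval 17.7 to 33.2, 42 UMIs) and 29.2 CPM (22.5 to 37.2, 65 UMIs) in hepatocytes. The intervals of both classes overlapped in each library, so their order for Atp7b was not resolved. The hepatocyte class was small, with 32 and 67 cells, of which 9.38% and 22.4% were called doublets, and it held Klf1 at 83.1 and 58.8 CPM.

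Sphk1 was at 44.1 and 42.1 CPM in late erythroid progenitors and Hesx1 at 33.6 and 27.7 CPM. Both stayed high in erythroblasts, Sphk1 at 26.0 and 24.4 CPM and Hesx1 at 23.6 and 20.5 CPM, which is 0.589 and 0.580 times the late progenitor level for Sphk1 and 0.702 and 0.742 times for Hesx1. In the stem class Sphk1 was at 0.265 and 0.363 CPM, and Hesx1 at 1.15 and 0.967 CPM. Summed over all classes outside the erythroid line, the levels ran from 0.408 CPM for C2cd4a to 4.44 CPM for Sh2d4a in WT and from 1.19 CPM for C2cd4a to 4.83 CPM for Sh2d4a in KO. By this sum every gene was higher in KO, with Sphk1 at 1.27 and 2.97 CPM and Atp7b at 2.33 and 4.05 CPM. The mix of classes differed, with megakaryocytes at 0.839% of WT and 3.33% of KO cells, and the part of this mix was not tested.

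Shares of positive cells depend on depth, and WT late erythroid progenitors were deeper, with a median of 43134 UMIs against 30247 in KO. Before thinning, Sh2d4a was seen in 82.0% of WT and 71.7% of KO cells of the class, and C2cd4a in 30.2% and 27.6%. After each cell was thinned to 5000 UMIs, which left out 10 WT and 13 KO cells, Sh2d4a was seen in 27.8% and 25.7%, Atp1b2 in 24.1% and 20.4%, Sphk1 in 18.9% and 15.8% and Slc26a1 in 17.5% and 17.6%. Hesx1 was seen in 16.2% and 12.7%, Atp7b in 13.6% and 11.9%, Klf9 in 8.49% and 9.40% and C2cd4a in 8.24% and 9.30%. The same measure in the stem class, where the levels of the genes were low, ran from 0% to 1.03% in WT and from 0% to 1.17% in KO. There, 0 of 581 WT and 0 of 596 KO stem cells had C2cd4a. The median depths of the stem class were 17613 and 12685 UMIs.

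At 5000 UMIs per cell, at least 3 of the 8 genes were seen together in 17.2% of WT (interval 14.7 to 20.1) and 14.4% of KO late erythroid progenitors (12.4 to 16.7). The intervals overlapped, and the difference of -2.83 percentage points had an interval from -6.33 to 0.60. In early erythroid cells the share was 0.857% and 0.872%, in erythroblasts 3.97% and 3.57%, and in the stem class 0% in both libraries. Without thinning, 87.4% of WT and 79.0% of KO late erythroid progenitors held at least 3 of the genes, and 74 WT and 40 KO cells held all 8.

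C2cd4a differed from the other 7 genes in how its molecules were spread over cells. Klf9 had almost the same sum in WT late erythroid progenitors, 737 UMIs against 733, yet it was seen in 399 cells and C2cd4a in 238. Among positive cells C2cd4a averaged 3.08 UMIs in WT and 2.42 in KO, and Klf9 1.85 and 1.64. The 10% of cells with most C2cd4a held 68.5% of its UMIs in WT and 64.9% in KO, against 41.2% and 45.5% for Klf9 and 29.5% and 31.7% for Sh2d4a. The cells with at least 4 UMIs of C2cd4a numbered 70 in WT and 63 in KO, with up to 18 UMIs in a WT cell.

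**Figure D2:**
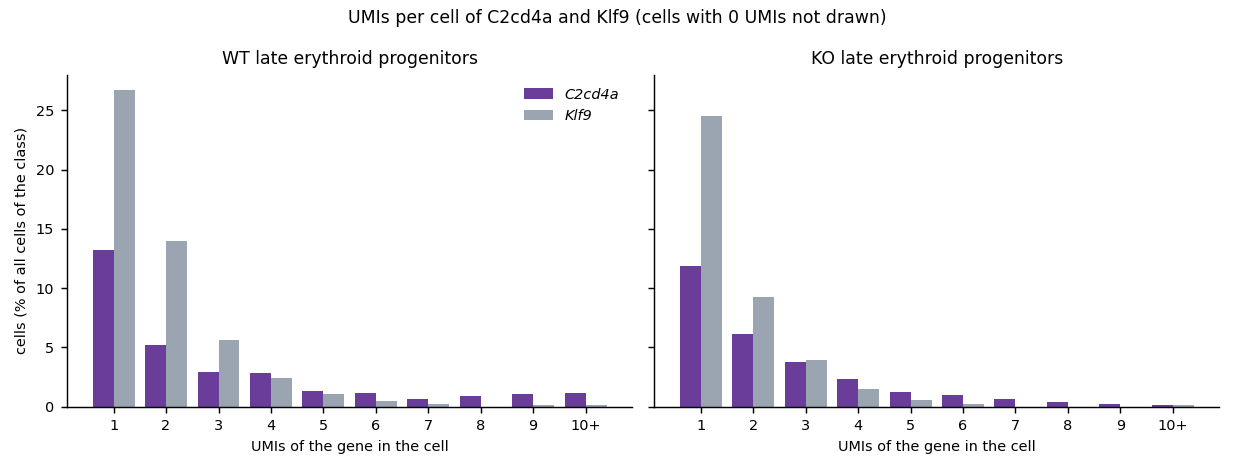
Share of late erythroid progenitors (y axis, percent of all cells of the class) by the number of UMIs of C2cd4a or Klf9 in the cell (x axis), in the WT and the KO library. Cells with 1 UMI of Klf9 make up 26.7% of WT cells against 13.2% for C2cd4a. Cells with 10 or more UMIs make up 1.14% of WT cells for C2cd4a and 0.127% for Klf9. In KO, cells with 10 or more UMIs make up 0.0919% for each of these genes.

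If the molecules of C2cd4a had been spread evenly over cells in proportion to depth within 4 equal parts of the stage score, 55.7% of WT and 46.1% of KO cells would have held one, and the observed share was 0.543 and 0.599 times that. For the other 7 genes this ratio ran from 0.879 to 0.921 in WT and from 0.873 to 0.929 in KO. For the 1700 genes with sums of 1000 to 2000 UMIs in these cells the median ratio was 0.966 and 0.970, and 17 genes in WT and 19 in KO, C2cd4a included, had a ratio as low as that of C2cd4a. The ratio was also low within the KO cells of each sex, at 0.567 in female-type and 0.666 in male-type cells. The measure was chosen after the counts were seen.

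To order the genes along the branch, the erythroid cells of both libraries were ranked by the stage score and cut into 8 bins of equal size, with bin 1 the earliest. The CPM-weighted mean position, in percent of the branch, was earliest for Klf9 at 38.0 and latest for Hesx1 at 50.4. Sh2d4a followed Klf9 at 42.0, then came Slc26a1 at 43.3, C2cd4a at 45.0, Atp7b at 46.4, Atp1b2 at 46.8 and Sphk1 at 49.0. Klf9 was first, Sh2d4a second and Hesx1 last in each library taken alone (36.6 and 39.3 for Klf9, 42.0 and 42.0 for Sh2d4a, and 49.9 and 50.9 for Hesx1 in WT and KO). The libraries differed by up to 2.72 points for a gene, so neighbours such as Atp7b and Atp1b2, 0.478 points apart, were not separated, and neither were Sphk1 and Hesx1 at the late end.

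**Figure D3:**
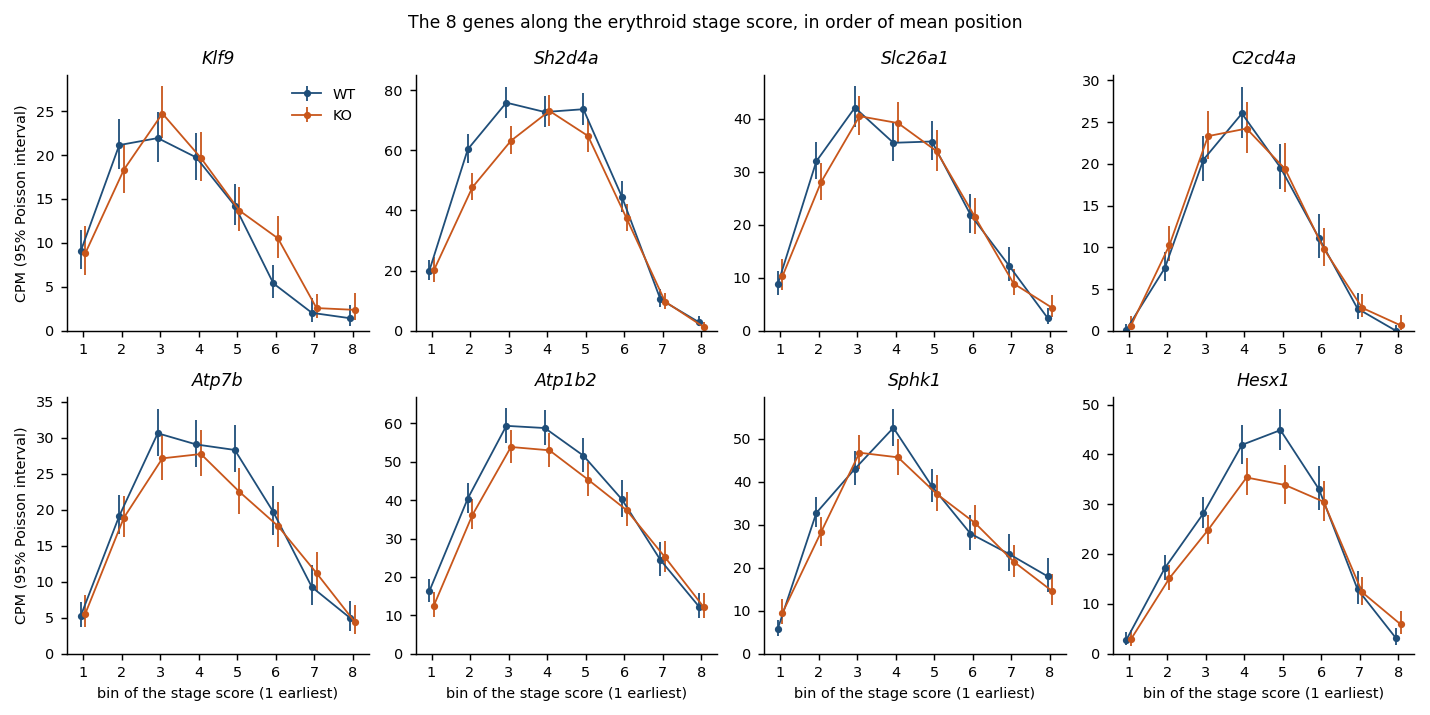
CPM of each gene (y axis, linear, one panel per gene in order of mean position) in 8 equal bins of the erythroid stage score (x axis, 1 the earliest), for WT and KO, with 95% Poisson intervals. In each library every gene rises from bin 1 to a top in bin 3, 4 or 5 and is lower by bin 8, where Sphk1 still stands at 18.0 CPM in WT cells. The fall is not always steady, as Sh2d4a in WT is at 72.7 CPM in bin 4 and 73.6 CPM in bin 5.

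Klf9 topped in bin 3 at 23.3 CPM and was already at 38.4% of its top in bin 1. C2cd4a stood at 1.31% of its top in bin 1, rose from 0.329 CPM there to 25.1 CPM in bin 4, and was down to 0.316 CPM in bin 8, so that it was close to absent at both ends of the branch. Hesx1 topped in bin 5 at 39.9 CPM, with 44.9 CPM in WT and 33.9 CPM in KO. Its WT top lay in bin 5 and its KO top in bin 4, at 35.4 CPM.

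The genes left the branch at different rates. In bin 8, 33.2% of the top level remained for Sphk1, 21.6% for Atp1b2, 16.1% for Atp7b and 11.1% for Hesx1, but 8.16% for Slc26a1, 8.11% for Klf9, 2.89% for Sh2d4a and 1.25% for C2cd4a. Haemoglobin took 42.7% of UMIs in bin 8, which lowers the CPM of all other genes there. With haemoglobin left out of the total, Sphk1 was at 28.4 CPM and C2cd4a at 0.550 CPM in bin 8. Over the same bins Kit fell from 85.0 CPM in bin 1 to 0.841 CPM in bin 8.

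The question put to the libraries was whether loss of IκBα changed the set. In late erythroid progenitors the KO/WT log2 ratio was 0.04 for C2cd4a (interval -0.11 to 0.19), 0.01 for Klf9 (-0.14 to 0.16), -0.05 for Slc26a1 (-0.16 to 0.07) and -0.07 for Sphk1 (-0.17 to 0.04). These 4 intervals included 0. Lower values in the KO library were seen for Hesx1, at -0.28 (-0.40 to -0.16), and for Sh2d4a, at -0.20 (-0.28 to -0.12). Atp1b2 was at -0.16 (-0.26 to -0.07) and Atp7b at -0.15 (-0.29 to -0.02).

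**Figure D4:**
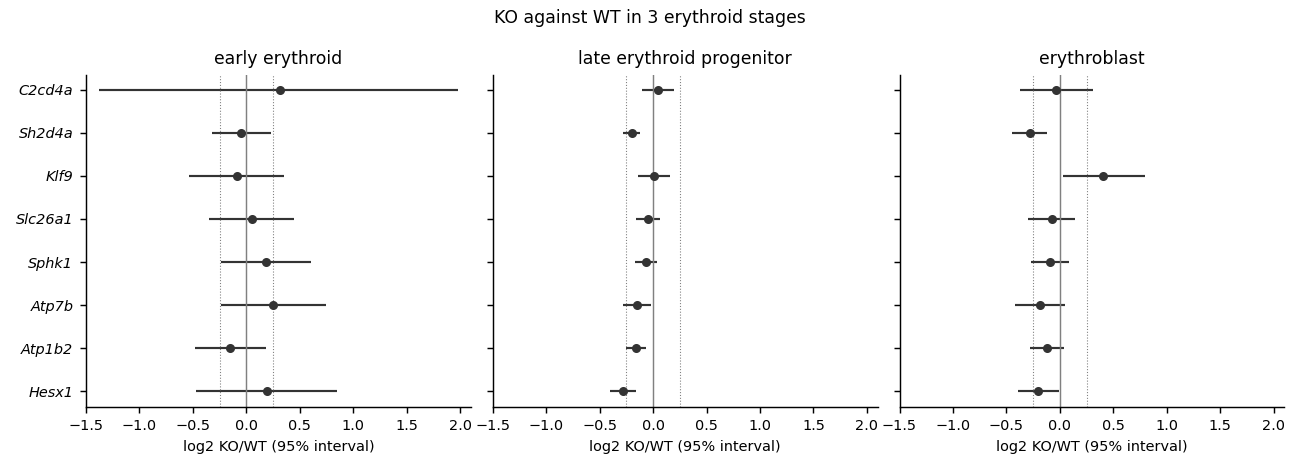
log2 KO/WT of each gene (x axis, points with exact 95% counting intervals) in early erythroid cells, late erythroid progenitors and erythroblasts; solid lines mark 0 and dotted lines 0.25 in either direction. In late erythroid progenitors only Hesx1, at -0.28, lies past a dotted line, and the intervals of C2cd4a, Klf9, Slc26a1 and Sphk1 include 0.

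The sizes were small. Hesx1 in KO was 0.824 times its WT level, Sh2d4a 0.870 times, and C2cd4a 1.03 times with an interval from 0.928 to 1.14. Of the 8 genes, 6 had a ratio below 0, none was above 0.25 and only Hesx1 was below -0.25. The place of Hesx1 past -0.25 was not firm, at -0.247 without Scrublet calls, -0.245 with looser marker cuts and -0.0848 in the cells of the cluster. Among the 7320 genes that had 500 UMIs or more, 3.95% were above 0.25 and 1.99% below -0.25, and among the 12075 with 20 UMIs or more these shares were 16.4% and 7.08%. The intervals of 4 of the 8 genes lay wholly below 0 and that of none above, where 11.4% of the 7320 genes lay wholly below and 16.5% wholly above. The median ratio of the 8 genes was -0.11 beside 0.02 over the 7320 genes, and their summed UMIs gave -0.13 (-0.17 to -0.09).

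In the stages before and after, fewer UMIs left wider intervals. In early erythroid cells all 8 intervals included 0, and the median over the 7 genes with at least 20 UMIs was 0.05, with Atp7b above 0.25 at 0.254, where 11.6% of 11009 genes were above and 14.7% below. In erythroblasts Sh2d4a was again lower in KO, at -0.28 (-0.45 to -0.12), as was Hesx1 at -0.20 (-0.39 to -0.01). Klf9 was higher there, at 0.41 (0.03 to 0.79), from 101 WT and 139 KO UMIs, so that 1 of 8 genes was above 0.25 and 1 below -0.25, beside 12.5% and 12.3% of 10320 genes. Within the stage bins the gap in Klf9 was clearest in bin 6, at 10.5 CPM in KO against 5.40 CPM in WT. Outside the erythroid line, few UMIs gave intervals above 0 for Atp7b in the stem class, at 1.68 (0.21 to 3.34), and for Sphk1. Sphk1 was at 1.28 (0.39 to 2.22) in neutrophils, 2.54 (0.22 to 5.81) in other progenitors and 2.68 (0.01 to 8.07) in megakaryocytes. No interval there lay wholly below 0, and no share over all genes stands beside these values.

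Bins 2 to 6, which hold most of the set's UMIs, showed how even the small differences were. Hesx1, Atp7b and Atp1b2 had a KO/WT ratio below 0 in each of the 5 bins, Sh2d4a and Slc26a1 in 4, and C2cd4a, Klf9 and Sphk1 in 3. The interval lay wholly below 0 in 4 bins for Sh2d4a, in 2 for Hesx1 and in 1 each for Atp7b and Sphk1. It lay wholly above 0 in 1 bin each for C2cd4a and Klf9. The median ratio over all genes ran from 0.01 to 0.04 in these bins. No share of all genes with such intervals stands beside these counts for single bins, so they are a description only. Hesx1 ranged from -0.41 in bin 5 to -0.11 in bin 6. Haemoglobin was 2.14% of WT and 3.83% of KO UMIs in bin 5, so that KO cells of the same bin held more.

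The KO pool held embryos of both sexes, and this allowed its embryos to be compared in part. Cells with UMIs of Y-linked genes and none of Xist (male-type) made up 17.4% of KO and 0.116% of WT cells, and cells with Xist and no Y-linked UMI (female-type) 69.4% and 95.9%. In KO late erythroid progenitors, 220 male-type cells carried more C2cd4a than 707 female-type cells, at 30.9 against 19.6 CPM (log2 ratio 0.65, interval 0.40 to 0.90). Hesx1 was at 37.5 against 26.1 CPM (0.53, 0.30 to 0.74), Sh2d4a at 84.1 against 63.3 CPM (0.41, 0.26 to 0.55) and Atp1b2 at 60.5 against 48.5 CPM (0.32, 0.15 to 0.49). For Klf9, Slc26a1, Sphk1 and Atp7b the interval included 0, with ratios of 0.03, 0.16, -0.08 and 0.13. Thus 4 of 8 intervals lay wholly above 0, where 16.9% of 5231 genes with at least 500 UMIs did, and none wholly below, where 8.72% did.

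**Figure D5:**
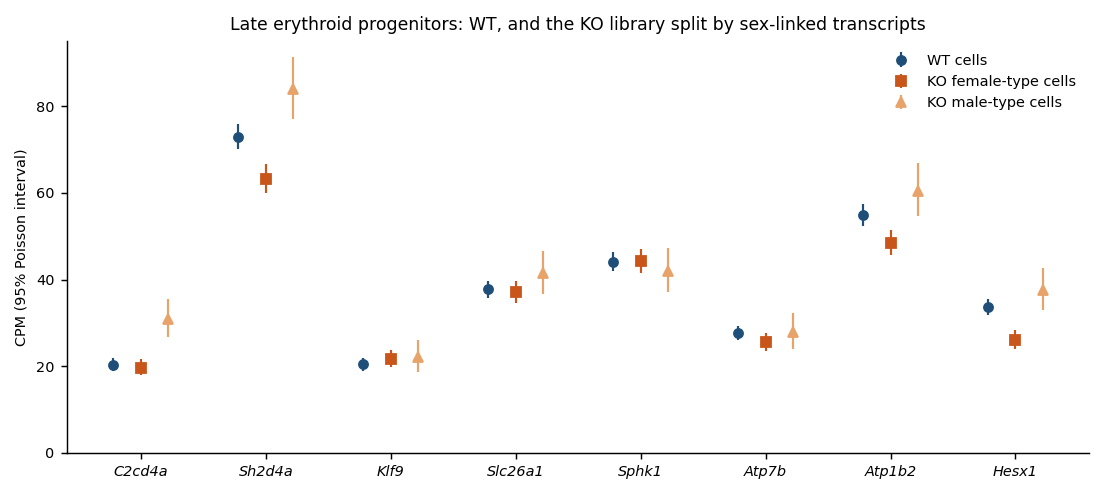
CPM of each gene (y axis, linear) in late erythroid progenitors of the WT library and in female-type and male-type cells of the KO library, with 95% Poisson intervals. The WT level of Sh2d4a, 73.0 CPM, and of Hesx1, 33.6 CPM, lies between the KO female-type level (63.3 and 26.1 CPM) and the KO male-type level (84.1 and 37.5 CPM).

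For 6 of the 8 genes the WT level lay, by point values, above the KO female-type and below the KO male-type level. For Sphk1 the order was reversed, with WT at 44.1 CPM between 44.3 CPM in female-type and 41.9 CPM in male-type cells. Klf9 in WT, at 20.4 CPM, lay below both KO levels, 21.7 and 22.2 CPM. Only for Sh2d4a was the WT interval (70.2 to 75.8 CPM) clear of both KO intervals. These ran from 60.0 to 66.7 CPM in female-type and from 77.2 to 91.5 CPM in male-type cells. No share over all genes stands beside this count. The median stage score of the male-type cells, 1.33, was near that of the female-type cells, 1.22, and their median depths were 28896 and 30291 UMIs. In erythroblasts the C2cd4a ratio of male-type to female-type cells was 0.87 (0.32 to 1.40) and that of Sh2d4a 0.44 (0.14 to 0.73), while Hesx1 gave -0.06 (-0.43 to 0.30). Sex and embryo cannot be told apart here, nor can genotype and pool between the libraries. With female-type cells alone in both libraries, Hesx1 was at -0.37 and C2cd4a at -0.06 in KO against WT.

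Genes of the same families and pathways were mostly not patterned like the members. The members were chosen for their high level in these cells and the relatives were not, so this contrast follows in part from the choice. Of 87 listed relatives and pathway genes, 55 had at least 20 UMIs in late erythroid progenitors. With both libraries summed, 2 of the 55, Klf16 and Steap3, were highest in that class. Steap3 was so only narrowly, at 72.9 CPM against 72.1 CPM in erythroblasts. In the WT library alone Steap3 was higher in erythroblasts, at 77.7 against 74.3 CPM. No share over all genes stands beside this count. The relatives C2cd4b, C2cd4c and C2cd4d were almost silent, with 1 UMI between them in late erythroid progenitors, so C2cd4a was the detected member of its family. Among the Sh2d genes, Sh2d3c was highest in endothelium and Sh2d5 in lymphoid cells, at 2.05 and 0.862 CPM in late erythroid progenitors.

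Of 16 other Klf genes, 12 were measured. Klf1, the master factor of the erythroid line, kept rising from 332 CPM in late erythroid progenitors to 411 CPM in erythroblasts (both libraries summed), and Klf3, a repressor induced by KLF1, from 57.4 to 97.8 CPM, whereas Klf9 fell. Klf2, Klf6 and Klf7 had KO/WT ratios with intervals above 0, at 1.09 (0.67 to 1.51), 0.50 and 0.76, and Klf1 had one wholly below 0, at -0.10 (-0.14 to -0.07). Klf2 was at 26.8 and Klf6 at 46.8 CPM in the stem class against 3.14 and 6.03 CPM in late erythroid progenitors. In all, 6 of the 12 were above 0.25 and 1 below -0.25, beside 16.4% and 7.08% of all genes with 20 UMIs or more in the class.

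Of the 8 other glucocorticoid response genes, 3 were above 0.25 and 2 below -0.25, with a median of 0.13, where 16.4% of all genes with 20 UMIs or more were above and 7.08% below. Nr3c1, the glucocorticoid receptor, was highest in early erythroid cells at 49.3 CPM, and stood at 42.5 CPM in late erythroid progenitors. Dusp1 gave 0.40 (0.17 to 0.63), Tsc22d3 0.45 (0.07 to 0.84) and Fkbp5 0.16 (-0.05 to 0.37) beside 0.01 for Klf9. Sgk1, at -0.33 (-1.13 to 0.45), and Per1, at -0.28 (-0.70 to 0.14), were the 2 below -0.25, and both intervals included 0.

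For sphingosine-1-phosphate, 11 of 14 genes were measured, none was above 0.25, and Sgpl1, the lyase that degrades the lipid, was below -0.25 at -0.27 (-0.57 to 0.02). Of all genes with 20 UMIs or more, 16.4% were above and 7.08% below, so 1 of 11 was near the share over all genes. Sphk2, the other kinase, was at 15.4 CPM in early erythroid cells, 16.1 in late erythroid progenitors and 10.5 in erythroblasts. The exporter Spns2 and the receptor S1pr4 were highest in early erythroid cells, at 64.4 and 35.2 CPM, and fell to 20.5 and 10.2 CPM as Sphk1 rose. Mfsd2b, the red cell and platelet exporter, was at 34.7 CPM in late erythroid progenitors.

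Among 10 measured copper genes the KO/WT ratio was below -0.25 for Atox1, the chaperone that delivers copper to Atp7b, at -0.27 (-0.31 to -0.24), and for Cox17 at -0.27 (-0.31 to -0.23). It was above 0.25 for Atp7a, the other copper-exporting ATPase, at 0.68 (0.09 to 1.28) from 104 UMIs. Thus 2 of 10 were below and 1 above, beside 7.08% and 16.4% of all genes with 20 UMIs or more. Atp7a was scarce in late erythroid progenitors, at 1.47 CPM. Steap3, an endosomal reductase for iron and copper, was at 72.9 CPM there and at 4.03 CPM in the stem class. The metallothioneins Mt1 and Mt2 had ratios of -0.06 and -0.01.

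Of the other β subunits of the sodium pump, Atp1b3 stood at 60.9 CPM in late erythroid progenitors and at 74.8 CPM in the stem class. Atp1b1 was at 0.721 CPM in late erythroid progenitors and at 6.42 CPM in the stem class. Of these 3, only Atp1b2 was higher in late erythroid progenitors than in the stem class, but it was chosen for its level there. Fxyd5, a pump regulator high in the stem class, had a ratio of 0.32 (0.17 to 0.47). Of the 5 other sodium pump genes measured, 1 was above 0.25 and 1 below -0.25, beside the same 16.4% and 7.08% of all genes. The 2 measured Slc26 genes had ratios of 0.10 and -0.10, and among the corepressors that partner Hesx1, Tle1 was at 0.02 (-0.18 to 0.22), Tle4 at 0.13 and Ncor1 at 0.09 (0.03 to 0.14).

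The flanking genes showed which levels stopped at the gene. Vps13c, 8066 bases from C2cd4a, and Fgfrl1, 16813 bases from Slc26a1, were also highest in late erythroid progenitors, at 35.0 and 10.6 CPM. C2cd4b on the other side of C2cd4a had 1 UMI there. Idua overlaps Slc26a1 on the other strand and was at 0.410 CPM, and the antisense RNA Gm29292 that overlaps Sphk1 had 0 UMIs in the class. Appl1, 23184 bases from Hesx1, was higher in KO at 0.50 (0.29 to 0.71), and Trp53 beside Atp1b2 was at 0.05 (0.00 to 0.09).

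The genes whose levels followed the set most closely were found by correlation with the mean standardised profile of the 8 genes over 26 points (13 classes in each of the 2 libraries). Pklr, the red cell pyruvate kinase, had the highest r at 0.946, then Slc25a21 at 0.944, Prss50 and Steap3 at 0.933, Ccne1 (cyclin E1) at 0.932, Asns (asparagine synthetase) at 0.931 and Gclm at 0.930. The list of 10 closed with 4933431E20Rik at 0.926, Ermap at 0.925 and Lefty1 at 0.921. The points share libraries and depth, and Ermap also served as an erythroid marker. Measured against the mean of the other 7, Sh2d4a had r = 0.950, Slc26a1 0.943, Sphk1 0.941, Hesx1 0.924, Atp7b 0.877, C2cd4a 0.848, Atp1b2 0.835 and Klf9 0.808. Unlike the members, Pklr was higher in WT erythroblasts, at 84.5 CPM, than in WT late erythroid progenitors, at 66.4 CPM. Slc25a21, Steap3, Ccne1, Asns, Gclm and Ermap were likewise higher in WT erythroblasts, with Ccne1 at 207 against 162 CPM. In the list of 10, only Prss50, 4933431E20Rik and Lefty1 had the order of the members in WT. Prss50 was at 16.4 CPM in WT late erythroid progenitors and at 6.81 CPM in WT erythroblasts.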

How the data were processed

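Single-cell RNA was measured with the 10x Genomics 3′ v3 kit in 1 WT and 1 KO library. The authors aligned reads with Cell Ranger 6.0.0 (per the labels, mouse build mm10) and deposited UMI counts, not normalized, for each gene in each cell. The annotation release was not given in the sources used here. No deposited column of per-sample values was left unmapped. Of 3840 WT and 4928 KO barcodes, 382 and 511 with under 1000 genes or over 20% mitochondrial UMIs were removed.

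Classes were gated on summed markers per 10000 UMIs with fixed cuts (erythroid cells from 8) in a set order, other lineages first. The cuts were read from the distributions of the marker scores, not from the 8 genes. The stage score was log2 of the erythroblast sum plus 0.5 over the early sum plus 0.5. Scrublet (in scanpy 1.11.5, at an expected rate of 5%) marked doublets, which were kept. Clustering used Seurat 5.3.0 (R 4.3.3) with 2000 variable genes, 20 components, 20 neighbours and resolution 0.5, without integration and with the 8 genes not held out.

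UMIs were summed per class and library and scaled to CPM. Sums have exact Poisson, shares exact Clopper-Pearson and KO/WT ratios exact conditional 95% intervals, which were tested on simulated data (Python 3.11.15, scipy 1.17.1). The interval of the difference of shares was combined from the exact limits of both shares and is approximate. Where a gene had 0 UMIs in one library no ratio was formed. Ratios past 0.25 on the log2 scale are counted as called, with no test. Correlations used log2(CPM + 1) of genes with at least 200 UMIs.

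Genes were named by rule: the 8 genes, their families and pathways, nearest and overlapping genes in GENCODE vM21, the 10 genes most alike, and markers. Genes beside the 8 in the cluster ranks were named after their values were seen. The 8 genes and the lists were chosen with earlier results of these data known, and support no independent claim. The alternatives tried covered scaling, averaging, filters, doublets, gates, sex, thinning and binning. Some genes of these lists are not reported here.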

Additional observations from a re-analysis of the deposited data

How the results depend on the processing

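No paired analysis was possible because there was 1 library for each genotype. For KO/WT in late erythroid progenitors, 10 alternatives were run for each gene. Scaling by the median of ratios, totals without haemoglobin, mitochondrial and ribosomal protein genes, the mean of CPM per cell, unfiltered cells, cells without Scrublet calls, stricter and looser marker cuts, female-type cells alone and equal weight to each stage bin left all 8 ratios within the counting interval of the value in the report. The cells of the recomputed cluster moved Sh2d4a to -0.11 and Hesx1 to -0.0848, and the cause was not tested. Sh2d4a, Atp7b, Atp1b2 and Hesx1 stayed below 0 in all 10, with ranges from -0.23 to -0.11, -0.18 to -0.083, -0.19 to -0.11 and -0.37 to -0.0848. C2cd4a kept its sign in 9, Sphk1 in 8, and Klf9 and Slc26a1 in 7. The median of the 8 genes ranged from -0.13 to -0.037, with -0.065 under looser cuts and -0.037 in the cluster. The share of cells with at least 3 genes differed by -8.47 percentage points without thinning, where WT cells were deeper, and by -1.41 to -4.22 in the other alternatives. Mean positions along the branch moved by less than the gap from first to last, and Klf9 stayed first and Hesx1 last with 5 or 12 bins, with erythroblast markers alone and with totals without haemoglobin, mitochondrial and ribosomal protein genes. The place of Hesx1 after Sphk1 was close to lost in the latter, at 52.15 against 52.13, and small with erythroblast markers alone, at 48.5 against 48.2. Equal weighting of bins, and these totals for the order along the branch, were chosen after seeing the data. Depth limits C2cd4a most in early erythroid cells, with 8 and 7 UMIs.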
